A study of Mus musculus with 2 samples.

Results

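The 9 receptor chains described here, through which myeloid and inflammatory cytokines act on blood progenitors, were examined in hematopoietic stem cells (HSCs) of the mouse fetal liver (FL) with and without endothelial cell-selective adhesion molecule (ESAM). They are Csf2ra, Il3ra, Csf2rb and Csf2rb2 of the GM-CSF and IL-3 receptors, Csf3r and Csf1r, the receptors for G-CSF and M-CSF, and Il1rap, Il18r1 and Il10ra of the IL-1, IL-18 and IL-10 receptors. The genes were taken by name, and all 9 were among the 23284 genes listed in both libraries. Each library held RNA from Lin- Sca1+ cKit High (LSK) CD48- cells of E14.5 livers, one from wild-type (WT) fetuses and the other from homozygous ESAM-null fetuses of an ESAM knockout line whose deletion is not limited to a cell type. The sources used here do not state how many fetuses or cells went into a library, or which exons the null allele removes. The labels' treatment field describes sorted cells placed in methylcellulose medium, a medium whose growth factors include IL-3, whereas the study describes the RNA as that of sorted FL cells, so that a period of culture before RNA extraction can be neither assumed nor set aside.

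Receptors of this kind lack activity until a ligand brings chains together. GM-CSF and IL-3 each bind an alpha chain of their own, CSF2RA or IL3RA, and signal through a common beta chain, CSF2RB. Mice carry a second beta chain gene, Csf2rb2, whose product serves IL-3 only. G-CSF pairs its own receptor, CSF3R, with itself, and M-CSF and IL-34 activate the receptor tyrosine kinase CSF1R. The beta chains and CSF3R work through JAK2 and STAT5 or STAT3, while IL-1 and IL-18 receptors signal through MYD88 and IRAK kinases. In stem and progenitor cells these receptors are known as early markers of readiness for the granulocyte and macrophage lineages.

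Levels are in FPKM, read numbers divided by transcript length and by library size, so that genes can be compared per length. There was 1 library per genotype. No difference below has a replicate check, no test was run, and fold differences describe the 2 libraries. Intervals are 95% counting intervals made from read numbers recovered from the FPKM steps and transcript lengths. Those of single genes and of the summed beta chains are exact, and those of ratios between chains are approximate. They cover counting error only, and the read numbers are approximate. Esam itself was at 117.6 in WT and 12.1 FPKM in ESAM-null cells, 9.69-fold lower. The recovered scale was 9353909 reads in WT and 10214358 reads in ESAM-null cells. Of the 23284 genes, 14305 were above 0 in WT and 13039 in ESAM-null cells, so values of 0 were more common in the ESAM-null library. This holds for the set of all genes and bears on each gene below that was at 0 in ESAM-null cells only. The 8 HSC markers summed to 666.4 in WT and 674 FPKM in ESAM-null cells, and none of them was 2-fold apart, with Cd34 at 230.04 and 240.3 FPKM and Procr at 120.1 and 142.8 FPKM. In RNA from pooled cells, fewer cells with a transcript and less of the transcript per cell cannot be told apart.

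The GM-CSF and IL-3 receptor chains stood in other proportions in ESAM-null than in WT cells. Csf2ra, the highest of the 9 in WT cells, was close to 2-fold lower in ESAM-null cells, and Csf2rb2 was past 2-fold lower. Il3ra, Csf1r, Il1rap and Il10ra were each between 1.5- and 1.8-fold higher in ESAM-null cells. Csf3r and Csf2rb were within 1.3-fold of WT. In all, 8 members reached 1 FPKM in at least 1 library. Of these 8, 1 fell at or past the 2-fold limit on the lower side, where 12.8% of the 12066 genes at 1 FPKM or more did, and 0 on the higher side, where 7.42% of them did. A count of 1 in 8 is near that background. The median log2 ratio of ESAM-null to WT was 0.22 over the 8 members and 0.01 over all genes at 1 FPKM or more and above 0 in both libraries, with 4 members below and 4 above a ratio of 1.

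**Figure D1:**
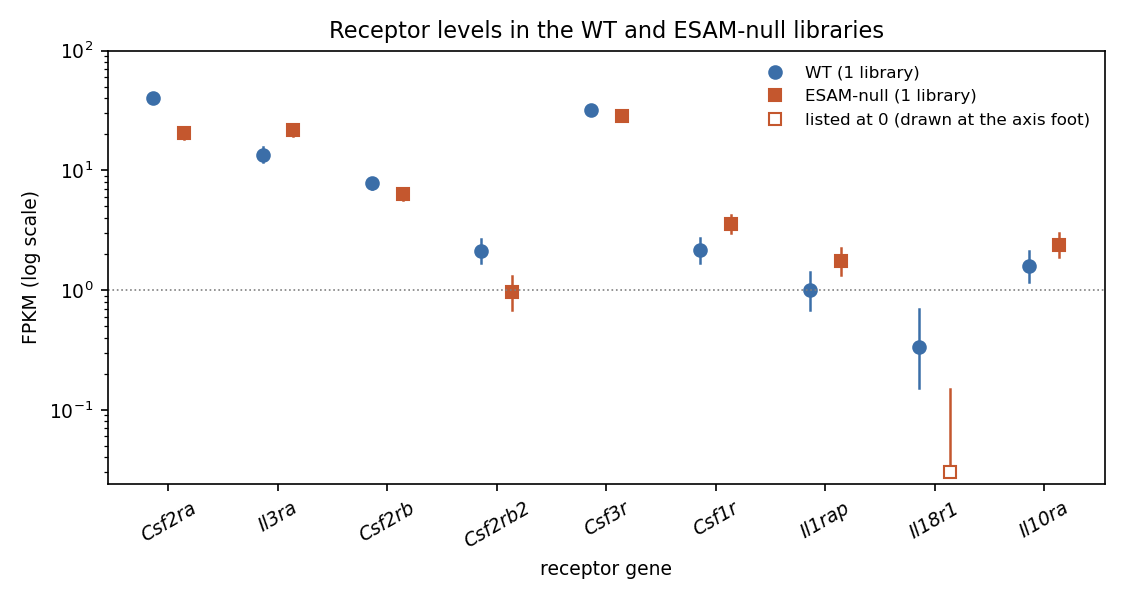
FPKM of the 9 receptor genes on a log axis, with WT as blue circles and ESAM-null as orange squares, 1 library each. Bars are 95% counting intervals, the dotted line marks 1 FPKM, and the open square is Il18r1, listed at 0. Csf2ra was 40.2 in WT and 20.5 FPKM in ESAM-null cells, while Il3ra was 13.6 and 21.9 FPKM.

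The alpha chain genes differed in opposite directions. Csf2ra, the GM-CSF binding chain (chr19:61223957-61228429 of GRCm38, minus strand, 12 exons), was at 40.2 in WT and 20.5 FPKM in ESAM-null cells, from about 619 and 345 reads. It was 1.96-fold lower in ESAM-null cells, with an interval of 1.71 to 2.24, so that the counts place it on either side of the 2-fold limit. Among 500 genes of most similar level, 1.2% were at or past 2-fold lower. Il3ra, the IL-3 binding chain (chr14:14346275-14356011, plus strand, 12 exons), went from 13.6 FPKM in WT to 21.9 FPKM in ESAM-null cells, from about 180 and 316 reads. It was 1.61-fold higher, with an interval of 1.33 to 1.94. The ratio of Csf2ra to Il3ra was therefore 2.96 in WT and 0.937 in ESAM-null cells. That ratio was 3.16-fold lower, with an interval of 2.52 to 3.95. In WT cells the GM-CSF alpha chain was the more abundant of the alpha chains, and in ESAM-null cells the intervals of both levels overlapped.

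The beta chain genes were both lower in ESAM-null cells. Csf2rb, the chain common to GM-CSF, IL-3 and IL-5 (chr15:78325752-78353847, plus strand, 15 exons), was at 7.84 in WT and 6.35 FPKM in ESAM-null cells, 1.23-fold lower with an interval of 1.06 to 1.45. Csf2rb2, the chain for IL-3 alone (chr15:78282507-78305721, minus strand, 14 exons), was at 2.14 in WT and 0.972 FPKM in ESAM-null cells. It was the receptor past the 2-fold limit, at a log2 ratio of -1.14, with an interval of 1.48- to 3.36-fold lower from about 77 and 38 reads. Its isoforms differ in length, and depending on which was present the reads could be 63 to 91 in WT and 32 to 45 in ESAM-null cells. Of the 500 genes nearest to Csf2rb2 in level, 29.2% were at least 2-fold lower, so a ratio of this size was common among genes with so few reads. The ratio of Csf2rb to Csf2rb2 was 3.67 in WT and 6.53 in ESAM-null cells, 1.78-fold higher with an interval of 1.17 to 2.71.

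The 2 beta chain genes lie side by side on chromosome 15 and are near copies, which bears on how far their reads can be assigned. Over 2631 aligned coding bases they shared 95.2% identity, with 126 mismatches. Reads here were 75 bases long. Of all 75-base windows of the Csf2rb2 transcript, 11.1% occurred unchanged in Csf2rb and 34.8% matched it with up to 2 mismatches. The remaining 65.2% had more than 2 mismatches, so that most reads of either gene carry several bases that tell them apart. The windows below come from the 2261 windows of the coding alignment that hold no gap, whose median was 2 mismatches. They show a stretch with that number and the stretch with the most that lies in 1 exon of each gene, with the bases that differ in capitals. Other coding windows differed by more, as the plot of windows shows. The first begins at the start codon and holds 2 mismatches, in exon 3 of Csf2rb (chr15:78335207-78335281, plus strand) and exon 2 of Csf2rb2 (chr15:78298155-78298229, minus strand), each numbered in the longest RefSeq transcript.
Csf2rb: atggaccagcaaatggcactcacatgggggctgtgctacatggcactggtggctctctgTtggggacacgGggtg
Csf2rb2: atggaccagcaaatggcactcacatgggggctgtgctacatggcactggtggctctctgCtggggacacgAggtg
The other holds 14 mismatches, in exon 5 of Csf2rb (chr15:78338905-78338979, plus strand) and exon 4 of Csf2rb2 (chr15:78294352-78294426, minus strand).
Csf2rb: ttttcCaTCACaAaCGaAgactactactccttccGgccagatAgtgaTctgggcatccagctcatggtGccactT
Csf2rb2: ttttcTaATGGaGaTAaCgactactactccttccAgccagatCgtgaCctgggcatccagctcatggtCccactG
A read from the first stretch can be placed at either gene by an aligner that tolerates 2 mismatches, although it fits its own gene better, whereas a read from the second stretch cannot. The sources used here do not say how the counting divided shared reads. The split between the genes is uncertain and their sum is the firmer value. The summed level was 9.98 in WT and 7.32 FPKM in ESAM-null cells, 1.36-fold lower with an interval of 1.16 to 1.56. Csf2rb2 made up 21.4% of the sum in WT and 13.3% in ESAM-null cells.

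**Figure D2:**
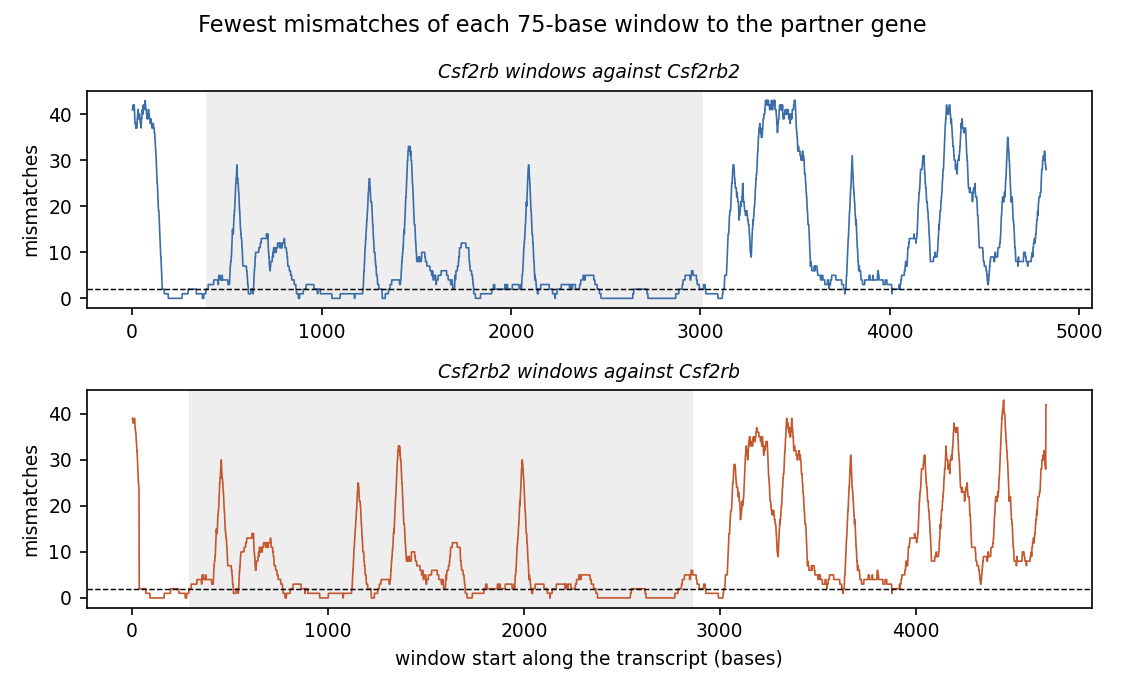
Fewest mismatches between each 75-base window of the Csf2rb transcript (top) or the Csf2rb2 transcript (bottom) and any window of the partner gene, plotted against the window's start in bases. Grey marks windows inside the coding part and the dashed line marks 2 mismatches. Windows at 0, which cannot be assigned by sequence, were 10.7% of Csf2rb and 11.1% of Csf2rb2, and most windows after the coding part lie well above 2.

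Set against the summed beta chains, the alpha chains as a whole stood in a similar proportion in both libraries, while their makeup differed. Csf2ra and Il3ra together were 5.39 times the beta chains in WT and 5.78 times in ESAM-null cells, a ratio of 1.07 with an interval of 0.899 to 1.28. Il3ra alone was 1.36 times the beta chains in WT and 2.98 times in ESAM-null cells, 2.19-fold higher with an interval of 1.74 to 2.77. Csf2ra alone was 4.03 times the beta chains in WT and 2.80 times in ESAM-null cells, 1.44-fold lower with an interval of 1.18 to 1.75. Compared with WT, the balance of alpha chain transcripts thus lay further toward the IL-3 alpha chain in ESAM-null cells. Within ESAM-null cells both alpha chains were at similar levels, with overlapping intervals. This is a comparison of 1 library with 1 library.

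RefSeq windows of 300 bases around the start were used for 6 of the 9 members, and Csf1r, Csf2rb and Il10ra were not searched. The 250 bases before each start were searched on both strands for 4 short motifs of blood cell transcription factors. GAGGAA, the purine-rich core bound by PU.1, occurred before 4 of the 6 genes, Csf2ra, Csf2rb2, Csf3r and Il18r1 (at 1 of its 3 starts), and in 23.3% of 32851 windows of the same kind. The 6 genes had 8 windows, 3 of them of Il18r1, so the count of genes and the share of windows are unlike measures. TTGCNNAA, a C/EBP motif, occurred before Il3ra and in 9.56% of all windows. TGTGGT, a RUNX core, was found before 0 members and in 14.05% of all windows. The GATA motif AGATAA likewise was found before 0 members, and in 9.99% of all windows. No matches overlapped one another. The windows of Csf2ra and Csf2rb2, the members with the lowest ratios among the 8 at 1 FPKM or more, are printed because both hold the PU.1 core, shown in capitals, in GRCm38.p6 and in the direction of the gene. That of Csf2ra is chr19:61228419-61228668 on the minus strand and holds the core 2 times, 14 and 8 bases before the start, while that of Csf2rb2 is chr15:78305722-78305971 on the minus strand and holds it once, on the opposite strand.
Csf2ra: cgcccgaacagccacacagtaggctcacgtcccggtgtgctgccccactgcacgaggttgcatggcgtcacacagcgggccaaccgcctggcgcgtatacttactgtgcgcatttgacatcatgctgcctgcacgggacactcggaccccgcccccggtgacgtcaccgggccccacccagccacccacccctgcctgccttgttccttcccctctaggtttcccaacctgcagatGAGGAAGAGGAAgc
Csf2rb2: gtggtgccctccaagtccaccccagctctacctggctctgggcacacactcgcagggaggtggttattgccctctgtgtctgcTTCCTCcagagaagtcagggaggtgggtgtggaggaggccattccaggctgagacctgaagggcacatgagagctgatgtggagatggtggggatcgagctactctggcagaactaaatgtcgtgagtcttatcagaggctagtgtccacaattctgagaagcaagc
A match of these letters describes the sequence and is no measure of binding. Spi1, the gene of PU.1, was at 207 in WT and 156 FPKM in ESAM-null cells. A link between PU.1 and the receptor ratios was not tested.

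The lineage-restricted colony stimulating factor receptors differed in level more than in ratio. Csf3r, through which G-CSF drives neutrophil production (chr4:126024550-126044440, plus strand, 17 exons), was at 32.2 in WT and 28.7 FPKM in ESAM-null cells, from about 940 and 915 reads. It was 1.12-fold lower with an interval of 1.02 to 1.23, the smallest difference among the measured members. Csf1r, the M-CSF receptor that macrophages depend on (chromosome 18, 22 exons), was at 2.17 in WT and 3.59 FPKM in ESAM-null cells. It was 1.65-fold higher with an interval of 1.24 to 2.23 from about 74 and 134 reads. Csf3r was 14.9 times Csf1r in WT and 8.001 times in ESAM-null cells, a ratio that was 1.86-fold lower with an interval of 1.38 to 2.50. A longer annotated form of Csf1r runs into exons of Hmgxb3 on the other strand, and the library kit is not described as keeping strand, but the RefSeq transcript of Csf1r, 3870 bases long, shares 0 bases with them. Exons of Il3ra and Il1rap also lie opposite other transcripts, Gm48860 and Gm20319, which are not analysed here.

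Because Csf1r and the other myeloid receptors are also carried by mature cells, markers of those cells were read beside them. Of 11 macrophage markers, Vsig4 and Timd4 were at 0 in both libraries, and Marco, C1qa, Cd5l, Adgre1 and Vcam1 were at 0 in ESAM-null cells only, the library with more zeros over all genes. Of the 6 that reached 1 FPKM, 4 had ratios below 1 and 2 above. By 2-fold or more 3 were lower and 0 higher, beside 12.8% lower and 7.42% higher over all genes. The macrophage markers summed to 28.3 in WT and 27.0 FPKM in ESAM-null cells, led by Cd68 at 14.2 and 19.98 FPKM and by C1qc at 3.38 and 5.07 FPKM. The 12 granulocyte and monocyte markers summed to 597 and 599.8 FPKM, mostly from Lyz2 at 335 and 334 FPKM and Prtn3 at 186 and 193 FPKM, while Elane, Ctsg and Fcnb were at 0 in both. Of the 7 granulocyte and monocyte markers that reached 1 FPKM, 5 had ratios below 1 and 2 above, with 1 lower by 2-fold or more and 0 higher. Another count, of those at 0 in ESAM-null cells only, was 2. The 8 mast cell and basophil markers, cells known for high IL-3 receptor levels, summed to 2.96 in WT and 5.97 FPKM in ESAM-null cells. Their leading members were Cpa3 at 1.11 and 3.83 FPKM and Hdc at 1.86 and 1.80 FPKM. The other 2 detected, Cma1 and Tpsb2, were at 0 in WT only and stayed under 1 FPKM. Mcpt8, Fcer1a, Ms4a2 and Prss34 were at 0 in both, as were all 4 eosinophil markers. The part of such cells in the receptor values was not tested.

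Sums of the remaining marker lists were 88.3 in WT and 105.8 FPKM in ESAM-null cells for 9 lymphoid and NK markers, led by Cd79b at 69.6 and 80.5 FPKM and Igll1 at 7.37 and 12.4 FPKM. They were 84.2 and 94.7 FPKM for 5 megakaryocyte markers, led by Gp9 at 57.8 and 65.9 FPKM and Pf4 at 19.5 and 22.8 FPKM. Endothelial markers, 6 in number, summed to 15.1 and 20.96 FPKM, led by Tek at 10.9 and 16.3 FPKM and Cdh5 at 0.954 and 3.33 FPKM. Hepatocyte markers, also 6, summed to 39.7 and 37.1 FPKM, led by Trf at 32.5 and 22.8 FPKM and Afp at 4.35 and 6.69 FPKM. At 1 FPKM or more, 1 of 7 lymphoid, 1 of 4 megakaryocyte, 0 of 3 endothelial and 1 of 4 hepatocyte markers were lower by 2-fold or more. Those higher were 0, 1, 1 and 1 in the same order, beside 12.8% lower and 7.42% higher over all genes. Those at 0 in ESAM-null cells only were 1, 1, 1 and 3.

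Il1rap, Il10ra and Il18r1 were each under 3 FPKM in both libraries. Il1rap, the accessory chain that IL-1 and IL-33 receptors need to signal (chr16:26581704-26730117, plus strand, 11 exons), was at 0.997 in WT and 1.74 FPKM in ESAM-null cells. It was 1.75-fold higher, with an interval of 1.12 to 2.77 from about 32 and 61 reads. Il10ra, the IL-10 binding chain (chr9:45253837-45269149, minus strand, 7 exons), was at 1.58 in WT and 2.40 FPKM in ESAM-null cells, 1.52-fold higher with an interval of 1.03 to 2.23 from about 45 and 74 reads. Ratios of this size were common at these levels, and 18.8% of the 500 genes nearest to Il1rap in level and 13.2% of those nearest to Il10ra were at least 2-fold higher. Il18r1, the IL-18 binding chain (chr1:40465552-40500854, plus strand, 11 exons), had 0.334 FPKM and about 8 reads in WT and a value of 0 in ESAM-null cells. It did not reach 1 FPKM. Set against a floor of 3 reads in the ESAM-null library, 0.122 FPKM, the WT level was 2.74 times as high, and its counting interval begins at 1.86-fold lower. This is a difference of a few reads, and with the shortest annotated isoform the WT value would rest on 5 reads.

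The order of the receptors differed at its top. In WT cells Csf2ra led, followed by Csf3r, Il3ra, Csf2rb, Csf1r, Csf2rb2, Il10ra, Il1rap and Il18r1, and the intervals of neighbours were apart down to Csf1r and overlapped from Csf1r onward. In ESAM-null cells Csf3r led, followed by Il3ra, Csf2ra, Csf2rb, Csf1r, Il10ra, Il1rap, Csf2rb2 and Il18r1. There the intervals of Il3ra and Csf2ra overlapped, as did those of Csf1r with Il10ra and of Il10ra with Il1rap, so that these places in the order are not settled by the counts. Csf2ra held the first place in WT and the third place in ESAM-null cells, and Csf2rb2 the sixth and the eighth place.

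**Figure D3:**
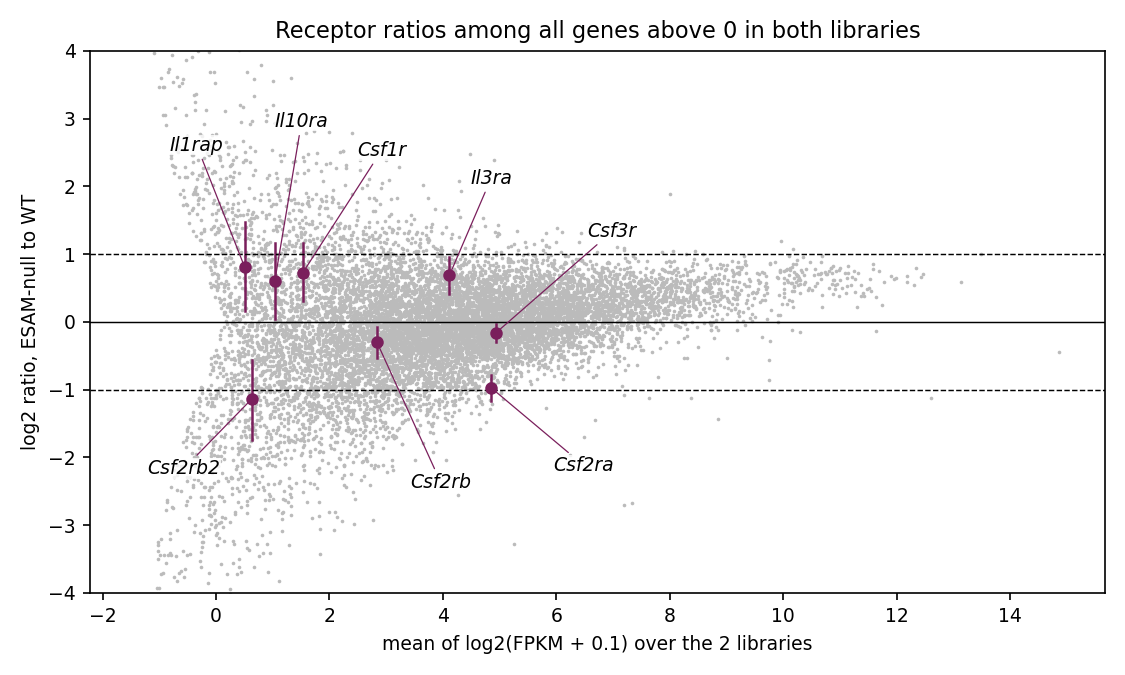
Log2 ratio of ESAM-null to WT against mean level, log2(FPKM + 0.1), for 11663 genes at 1 FPKM or more in 1 library and above 0 in both. Grey points are genes, purple points the 8 measured receptors with 95% counting intervals, and dashed lines mark 2-fold; 135 genes lie beyond the axis. Csf2ra lies near the lower edge of the genes of its level, while Csf2rb2 lies where the spread is wide.

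Chains that pair with the members were read from a list of 8. Among the 5 that reached 1 FPKM, 1 was lower by 2-fold or more and 0 were higher, beside 12.8% lower and 7.42% higher over all genes. Their median log2 ratio was 0.05 over the 4 above 0 in both libraries. The lower one was Il1rl2, the IL-36 receptor chain that pairs with IL1RAP, with 2.07 FPKM and about 53 reads in WT and no reads in ESAM-null cells, which is at least 19.2-fold lower against a floor of 3 reads, with a counting interval from 15.1-fold lower. Over all genes, values of 0 were more common in the ESAM-null library, as given above. Sigirr, an inhibitory relative of the IL-1 receptors, was the highest of the list at 56.4 and 49.8 FPKM, followed by Il10rb, the partner of IL10RA, at 10.6 and 8.54 FPKM. The ratio of Il10ra to Il10rb was 0.149 in WT and 0.281 in ESAM-null cells, 1.88-fold higher with an interval of 1.22 to 2.90. Il1rl1, the IL-33 binding chain, was at 0 in both libraries. Il1r1, the IL-1 binding chain, and Il5ra, the IL-5 alpha chain, stayed under 1 FPKM, at 0.655 and 0.0430 FPKM and at 0.444 and 0.0874 FPKM. The accessory chain Il18rap was at 3.17 in WT and 5.36 FPKM in ESAM-null cells although its partner Il18r1 was barely detected, and the decoy receptor Il1r2 was at 1.49 and 1.80 FPKM.

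The cells made few transcripts for the ligands of these receptors. Of 13 ligand and binding protein genes, Csf2, Csf3, Il3 and Il5 were at 0 in both libraries, which at the depth here says only that they were not detected. Another 5 reached 1 FPKM, of which 2 were at least 2-fold higher in ESAM-null cells and 0 lower. Over all genes at 1 FPKM or more, 7.42% were that far higher and 12.8% that far lower. The count of 2 ligand genes became 0 with a filter of 5 FPKM or with 1 FPKM required in both libraries. Il10, the ligand of IL10RA, was at 0 in WT and 2.40 FPKM in ESAM-null cells, from about 27 reads, which is at least 8.29-fold higher against a floor of 3 reads, with a counting interval from 6.26-fold higher. Il18bp, which binds and blocks IL-18, was at 0.0888 FPKM in WT, about 1 read, and 3.59 FPKM in ESAM-null cells, about 51 reads, for a ratio of 40.5 with an interval of 8.01 to 1880. Il18bp shares exonic sequence with Numa1 on the other strand, at 23.3 and 20.7 FPKM, and without strand their reads cannot be told apart there. Il18 was the highest ligand and nearly equal, at 8.54 in WT and 8.59 FPKM in ESAM-null cells, and Csf1, the M-CSF gene, was at 1.03 and 1.30 FPKM.

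Genes that carry the signal of the colony stimulating factor and IL-3 receptors were mostly within 2-fold, as were most genes. Of 25 JAK-STAT and Ras signaling genes, 24 reached 1 FPKM, with 1 lower by 2-fold or more, 1 higher and 22 within, and with a median log2 ratio of -0.12. Over all genes at 1 FPKM or more, 12.8% were that far lower, 7.42% that far higher, and 9631 of 12066 were within. Socs1, which restrains JAK kinases, was at 15.8 in WT and 4.82 FPKM in ESAM-null cells, 3.28-fold lower with an interval of 2.69 to 4.05. Gab2, an adaptor that binds receptor complexes with SHP2, was at 2.80 and 6.30 FPKM, 2.25-fold higher with an interval of 1.79 to 2.88. The highest were Ptpn6, the gene of the phosphatase SHP1, at 183 and 185 FPKM, and the adaptor gene Grb2 at 88.8 and 98.9 FPKM.

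The MYD88 pathway used by IL-1 and IL-18 receptors was read from 11 genes, all of which reached 1 FPKM. Of the 11, 1 was past 2-fold lower, where 12.8% of all genes were, and 8 had ratios below 1, as 6034 of the 12066 genes at 1 FPKM or more had. Their median log2 ratio was -0.53, against 0.01 over all genes. Irak2, a kinase of the receptor complex, was at 5.78 in WT and 2.71 FPKM in ESAM-null cells, 2.14-fold lower with an interval of 1.62 to 2.82. The highest were Irak1, at 79.1 and 53.5 FPKM, and Myd88, the adaptor at the head of the pathway, at 42.3 and 29.4 FPKM. Among 7 myeloid transcription factors, 6 reached 1 FPKM, and all 6 had ratios below 1 without any past 2-fold, at a median log2 ratio of -0.37. The highest were Spi1, given above, and Cebpb at 165 and 104.5 FPKM. Exons of Myd88 lie opposite those of Acaa1a, and exons of Cebpb opposite those of Tmem189, so that without strand part of these values is uncertain.

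A last list held 28 cytokine receptor genes outside the myeloid set, of which 22 reached 1 FPKM. Of the 22, 5 were lower by 2-fold or more and 0 were higher, with a median log2 ratio of -0.30 over the 21 above 0 in both. Of all 12066 genes at 1 FPKM or more, 12.8% were that far lower and 7.42% that far higher. Il12rb1 was at 1.79 FPKM in WT and 0 in ESAM-null cells, at least 16.3-fold lower against the same floor, with a counting interval from 12.8-fold lower, and Il9r at 2.29 and 0.0339 FPKM from about 62 reads and 1 read. Il6st, the gene of gp130, was at 4.06 and 1.08 FPKM and Il27ra, which pairs with it for IL-27, at 12.3 and 5.25 FPKM. The fifth was Il15ra, at 17.5 in WT and 7.76 FPKM in ESAM-null cells. Il2rg, the common gamma chain gene, was among the highest, at 125 and 147 FPKM. The myeloid receptors, with 1 lower and 4 of 8 ratios above 1, were thus described by a higher median than this list, and the difference between the lists was not tested.

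**Figure D4:**
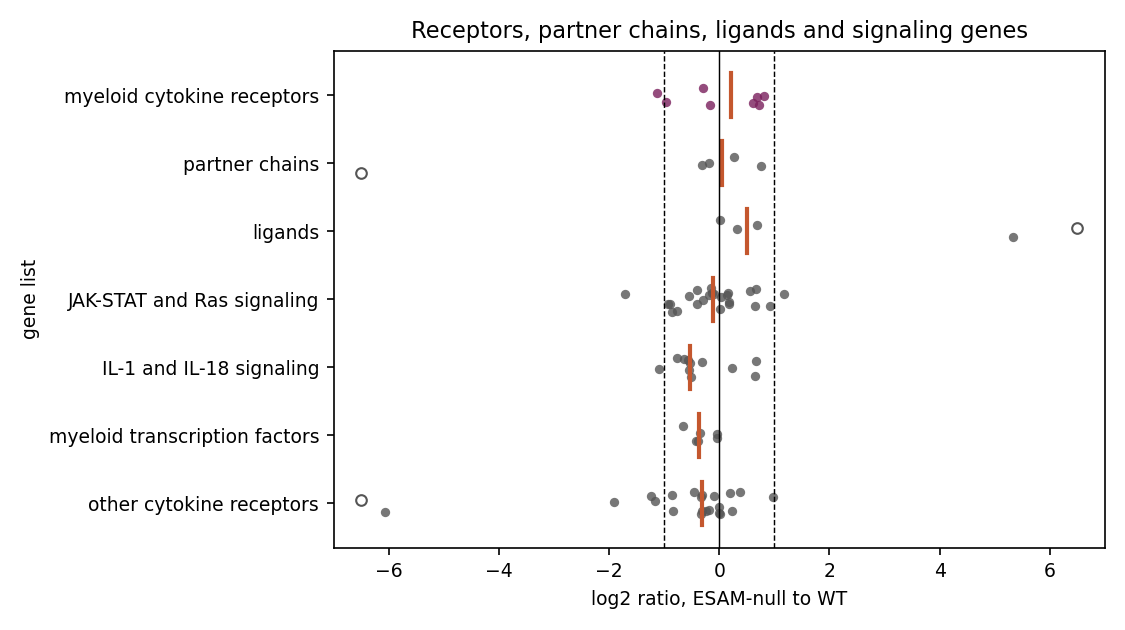
Log2 ratio of ESAM-null to WT for every gene at 1 FPKM or more in 1 library in 7 lists, with the receptors in purple on top. Each point is a gene, orange bars are medians of genes above 0 in both libraries, dashed lines mark 2-fold, and open circles are genes at 0 in 1 library, drawn at the edge. The medians were 0.22 for the receptors, -0.53 for IL-1 and IL-18 signaling and -0.30 for other cytokine receptors.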

How the data were processed

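RNA of LSK CD48- cells from E14.5 fetal livers was sequenced as 1 ESAM-null and 1 WT library, made with a SMART-Seq v4 kit and 75-base single-end reads. The submitters' processing notes list mm10, Cuffnorm 2.2.1, SAMtools 0.1.19, Bowtie2 2.2.3 and TopHat2 2.0.13, and the authors deposited 1 FPKM value per gene and library. Plain ratios of the deposited FPKM values were taken with no pseudocount, and a gene was counted as lower or higher at 2-fold or more with at least 1 FPKM in 1 library. Reads were recovered from the FPKM steps of low genes with GENCODE M21 transcript lengths and an assumed fragment length of 200 bases (SD 80). In WT 63.8% of 839 low genes, and in ESAM-null cells 70.9% of 506, fell within 0.05 of a whole read, so single read numbers are estimates. Intervals are at 95% (scipy 1.17.1). Those of single-gene ratios and of the summed beta chains are exact Clopper-Pearson intervals, and those of levels are exact Poisson intervals. Those of ratios between chains are normal approximations on the log scale. Calls and intervals of single-gene ratios were tried on simulated counts with Poisson error. That simulation did not cover the recovery of reads from FPKM steps, isoform lengths or shared reads. Coding sequences were aligned with Biopython 1.88. Sequences are from GENCODE and RefSeq (GRCm38).

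The named genes were all 9 members, the genes of each pathway list past 2-fold (up to 4 in each direction) with its 2 highest, and the 2 highest markers of each cell type list. One gene that this rule names is not reported here. Further genes, such as Il1r1, Il5ra, Il18rap, Il1r2, Csf1 and markers at 0, were named after their values were seen. Members and lists were chosen with earlier results of these data known. Other filters, pseudocounts, scalings and thresholds were tried as alternatives.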

Additional observations from a re-analysis of the deposited data

How the results depend on the processing

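No paired analysis was possible because each genotype had 1 library. Over the 6 pseudocounts and scalings tried, the 8 measured receptors kept the sign of their log2 ratios, and Il18r1, at 0 in ESAM-null cells, has none. Csf2ra lay between -1.25 and -0.94 and passed 2-fold in 1 of the 6, and Csf2rb2 lay between -1.42 and -0.67 and passed it in 5. Scaling to the median ratio, upper quartile or trimmed mean moved log2 ratios by at most 0.02, but rescaling to a total of 1000000 moved them by -0.28. The count of lower receptors, 1 in the report, was 2 without a filter, with a filter of 0.1 FPKM, after that rescaling and at a 1.5-fold threshold. It was 0 with a filter of 5 FPKM, with 1 FPKM required in both libraries, with a pseudocount of 1, at a 3-fold threshold and with Csf2rb and Csf2rb2 summed. The count of higher receptors, 0, became 4 at 1.5-fold.

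The median log2 ratio of the receptors, 0.22, was -0.23 with a filter of 5 FPKM, -0.060 after the rescaling and 0.60 with the beta chains summed. Leaving out Csf1r, Il3ra, Il1rap or Il10ra gave -0.17 and leaving out Csf2ra, Csf2rb, Csf2rb2 or Csf3r gave 0.60, so the sign of the median rests on single members. Over the 6 pathway lists the count of lower genes, 8, was 16 without a filter, 15 with 0.1 FPKM, 4 with 5 FPKM, 5 with 1 FPKM in both, 15 after the rescaling, 17 at 1.5-fold and 5 at 3-fold. The count of higher genes, 3, was 6 without a filter, 1 with 5 FPKM or 1 FPKM in both, and 11 at 1.5-fold. With 1 library per genotype, differences between animals and between preparations cannot be told apart from the genotype, and Il18r1 and Il1rap are limited by read number.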
